A study of Mus musculus with 6 samples.

Results

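The smooth muscle type contractile genes are the actin, myosin and actin-binding genes that fibroblasts switch on when they become myofibroblasts. The set holds 10 genes chosen by symbol, Acta2, Actg2, Lmod1, Tpm2, Tagln, Cnn1, Cald1, Myl9, Mylk and Myh11. All 10 had 1 probe set with that symbol on the array, out of 19505 named genes. They were followed over 6 Affymetrix arrays of mouse heart cells, 3 of cardiac fibroblasts and 3 of cardiomyocytes.

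Each culture was held for 48 h with phosphate-buffered saline (PBS, called sham in the sample titles), with what Ccrl2+ macrophages had secreted (their secretome), or with the secretome of Ccrl2- cells. Ccrl2 encodes an atypical receptor that binds chemerin. All 6 samples are labelled C57BL/6N and 15 to 16 weeks old. The macrophages of both secretome groups were sorted from a mixture of 6 wild type mouse hearts, at 1 week of transverse aortic constriction, an operation that narrows the aorta and loads the ventricle, so each secretome comes from pooled animals. The labels state neither the passage nor the culture surface of the fibroblasts. The protocols speak of co-culture with the macrophages and the source field of their secretome, which was followed here, and the sample descriptions name cardiac macrophages. With 1 array per group there is no replicate spread and no test, and every difference below compares 1 array with 1 array.

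In a contractile cell, actin filaments built from the products of Acta2 and Actg2 slide past myosin filaments. The myosin carries the heavy chain of Myh11 in smooth muscle and is switched on when the kinase encoded by Mylk phosphorylates the light chain encoded by Myl9. Most of these genes are controlled by serum response factor (SRF), which binds CArG boxes together with myocardin or the related factors Mrtfa and Mrtfb, and by TEAD factors at MCAT elements. In the heart, fibroblasts activated by injury, stretch or TGF-beta put alpha smooth muscle actin into stress fibres, the defining feature of a myofibroblast.

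The start regions of 7 of the 10 genes were found in the RefSeq promoter table of build GRCm38.p6, and the 250 bases before the annotated start are shown for 5 of them: Acta2, whose product defines the myofibroblast, and the 4 found there among those that lay at least 2-fold lower in fibroblasts with the Ccrl2- secretome. Capitals mark matches to the CArG frame CCNNNNNNGG with at least 5 of the 6 inner bases A or T, and to the MCAT element CATTCC or its reverse complement GGAATG. The CArG frame is its own reverse complement, so both strands were searched for both motifs, and no marked matches overlap. The windows are chr19:34255374-34255623 on the minus strand for Acta2, and on the plus strand chr2:156775214-156775463 for Myl9, chr16:34784700-34784949 for Mylk, chr1:135324563-135324812 for Lmod1 and chr9:22099003-22099252 for Cnn1.
Acta2: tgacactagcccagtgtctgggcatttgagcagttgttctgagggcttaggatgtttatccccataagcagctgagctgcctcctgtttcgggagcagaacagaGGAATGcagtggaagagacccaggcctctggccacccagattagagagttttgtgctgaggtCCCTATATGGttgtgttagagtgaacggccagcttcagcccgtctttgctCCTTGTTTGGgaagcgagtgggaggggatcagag
Myl9: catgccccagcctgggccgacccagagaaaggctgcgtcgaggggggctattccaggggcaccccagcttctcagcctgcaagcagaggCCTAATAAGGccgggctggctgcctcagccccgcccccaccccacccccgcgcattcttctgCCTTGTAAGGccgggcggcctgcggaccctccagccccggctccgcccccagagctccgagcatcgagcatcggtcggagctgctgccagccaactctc
Mylk: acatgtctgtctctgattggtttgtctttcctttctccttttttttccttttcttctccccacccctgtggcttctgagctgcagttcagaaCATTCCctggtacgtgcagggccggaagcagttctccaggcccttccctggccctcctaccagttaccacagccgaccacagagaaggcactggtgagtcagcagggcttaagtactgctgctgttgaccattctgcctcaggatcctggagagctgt
Lmod1: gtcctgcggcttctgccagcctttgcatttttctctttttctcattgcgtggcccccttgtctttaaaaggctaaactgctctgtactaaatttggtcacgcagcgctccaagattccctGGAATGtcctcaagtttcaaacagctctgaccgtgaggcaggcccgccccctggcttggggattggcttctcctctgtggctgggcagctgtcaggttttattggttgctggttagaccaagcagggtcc
Cnn1: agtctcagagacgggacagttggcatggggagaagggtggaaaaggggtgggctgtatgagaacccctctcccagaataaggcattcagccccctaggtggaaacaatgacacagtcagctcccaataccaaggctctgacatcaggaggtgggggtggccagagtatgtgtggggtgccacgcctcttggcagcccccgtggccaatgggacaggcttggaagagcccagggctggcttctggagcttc

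The Acta2 window holds 2 CArG-like matches, CCCTATATGG starting 84 bases before the annotated start and CCTTGTTTGG starting 34 bases before it, and 1 MCAT match starting 146 bases before it. Myl9 has a full CArG box, CCTAATAAGG, 161 bases before the start and a CArG-like match, CCTTGTAAGG, 99 bases before it. Mylk and Lmod1 each carry 1 MCAT match, 158 and 130 bases before the start, and Cnn1 carries none of these letters in its window. Among the 7 genes, 2 had a CArG box or CArG-like match and 4, Acta2, Cald1, Lmod1 and Mylk, had an MCAT match. Cald1 has 2 windows, and its match is in 1 of them. The windows of 1 chromosome were left out of the background. Of the 32851 windows of this length that were searched, 1.47% held a full CArG box, 8.59% a CArG box or CArG-like match and 12.6% an MCAT match. These shares count windows, while the counts above are of genes. These are matches of letters, not binding sites.

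The values are log2 probe set summaries, so a difference of 1 is 2-fold. A gene counted as past the floor in a comparison when at least 1 of its values was 6.55 or more, which is the median of all named values. For the 5222 negative control probe sets, the 95th percentile ranged from 10.2 to 10.74. Acta2, Tagln, Cald1, Myl9 and Tpm2 were above that percentile on all 6 arrays, and Mylk was above it on the 3 fibroblast arrays. Actg2, Cnn1, Lmod1 and Myh11 were below it on all 6 arrays, so their signals lie within the range of the controls. The fibroblast and cardiomyocyte labels matched their markers: in PBS, 10 of 11 fibroblast markers were at least 2-fold higher in fibroblasts and 12 of 12 cardiomyocyte markers at least 2-fold lower. The cardiomyocyte culture also held endothelial transcripts, with 8 of 9 endothelial markers at least 2-fold lower in fibroblasts (median -5.08). Each culture held other transcripts too. In PBS fibroblasts 2 of 12 cardiomyocyte markers were below the floor, with Tnnt2 at 16.12, Nppa at 16.1 and Tnni3 at 6.92. There 0 of 11 macrophage and 0 of 9 epicardial markers were below it, with Mrc1 at 12.76 and Upk3b at 14.04. In PBS cardiomyocytes 1 of 11 fibroblast markers was below the floor, with Dcn at 15.34, and 1 of 11 macrophage markers, with Mrc1 at 12.92.

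**Figure D1:**
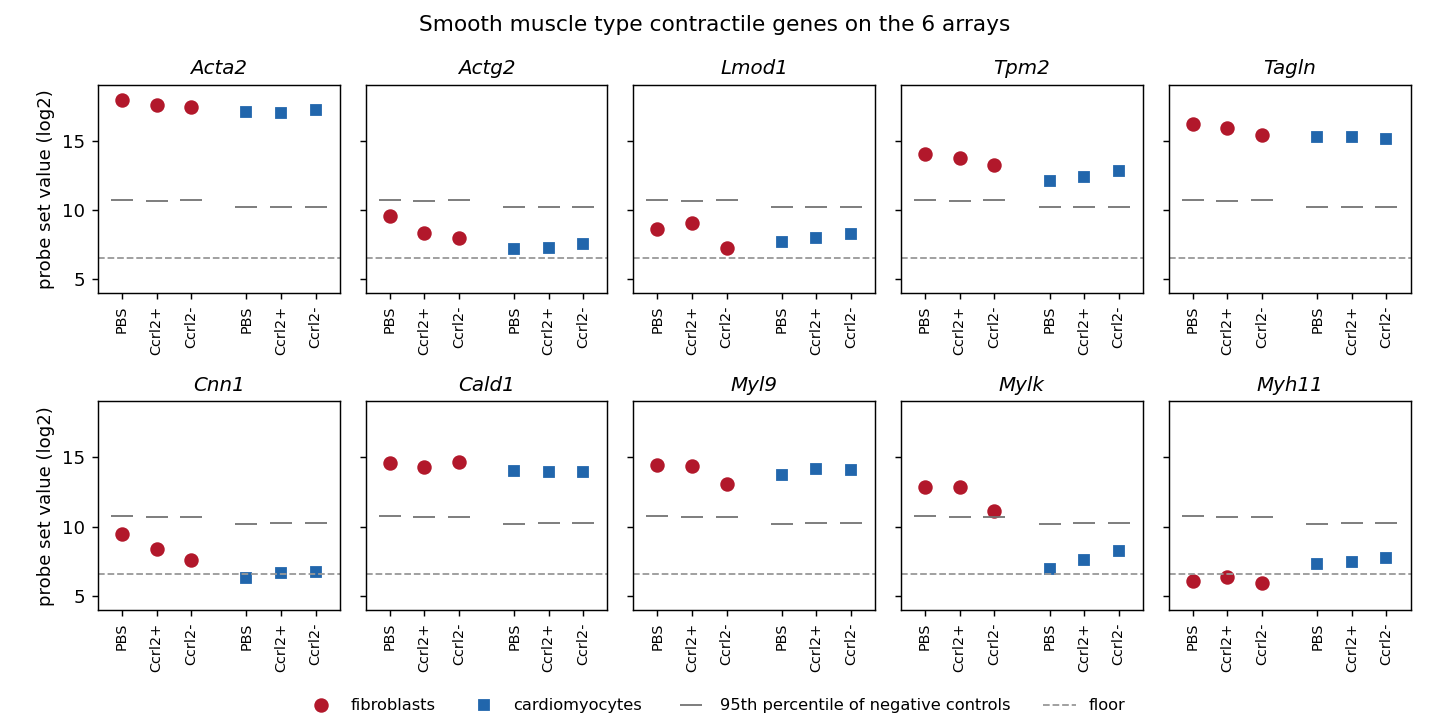
Values of the 10 contractile genes (log2, vertical axis) on each of the 6 arrays, 1 array per group: circles are fibroblasts, squares cardiomyocytes, short bars the 95th percentile of negative controls on that array and the dashed line the floor of 6.55. Mylk lies at 11.15 or above in fibroblasts and at 8.22 or below in cardiomyocytes, and Myh11 is below the floor on the 3 fibroblast arrays.

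With the Ccrl2- secretome the contractile genes lay lower in fibroblasts than with PBS. Of the 9 genes past the floor, 8 were below their PBS value and 5 were at least 2-fold lower, namely Cnn1, Mylk, Actg2, Myl9 and Lmod1, and 0 were at least 2-fold higher. Over all 10057 genes that passed it, 57.8% read below PBS, 4.83% lower by 2-fold or more and 6.18% higher by that much. The median of the 9 genes was -1.36, against -0.09 over all genes. With the floor raised to the 75th percentile of named values, 10.14, 2 of the 5 were left, Myl9 and Mylk, and the median was -0.8.

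With the Ccrl2+ secretome fewer of these genes stood far from PBS, though 8 of the 9 read below it, against 55.3% of all genes. Actg2 and Cnn1 were at least 2-fold lower, 0 of the 9 past the floor reached 2-fold higher, and the median was -0.3 against -0.07 over all genes. Both calls were lost with the 10.14 floor, and both also at a threshold of 3-fold. The shares over all 10042 genes were 6.13% lower and 4.87% higher. Both genes have signals within the range of the negative controls. Of the controls past the floor, 11.2% were lower by 2-fold in this comparison and 6.21% in the Ccrl2- comparison. The poly-A spike-ins, RNA added before labelling, had a median difference of 0.605 here and -0.31 in the Ccrl2- comparison, and their part was not tested. The secretome comparisons share the PBS array, so a low or high PBS value of a gene enters both.

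Compared directly, Lmod1, Mylk and Myl9, 3 of the 9 above the floor, read at least 2-fold higher with the Ccrl2+ than with the Ccrl2- secretome, and 0 read lower by that much. Over all 10144 genes, 8.55% were higher and 10.1% lower by that much. The median of the 9 was 0.55, against 0.0 over all genes. Cald1 was the exception in sign, at -0.36. Lmod1, at 9.06 and 7.24, lies within the range of the negative controls, and its call is lost with the 10.14 floor. Of the controls past the floor, 7.75% were higher and 11.3% lower by 2-fold in this comparison. The poly-A spike-ins had a median difference of 0.89 and the hybridisation spike-ins 0.33, the same sign as the median of the 9 genes. The part of the spike-in differences in the contractile differences was not tested. Among the 3 fibroblast arrays, 8 of the 9 genes had their lowest value with the Ccrl2- secretome, against 39.6% of all 10259 genes past the floor on any of these arrays, and 7 of the 9 followed the order PBS, Ccrl2+, Ccrl2- from high to low, against 15.6% of all genes. Of these 7, Mylk and Myl9 lay only 0.01 and 0.08 under PBS with Ccrl2+. With a loess trend removed both read above PBS, outside this order.

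**Figure D2:**
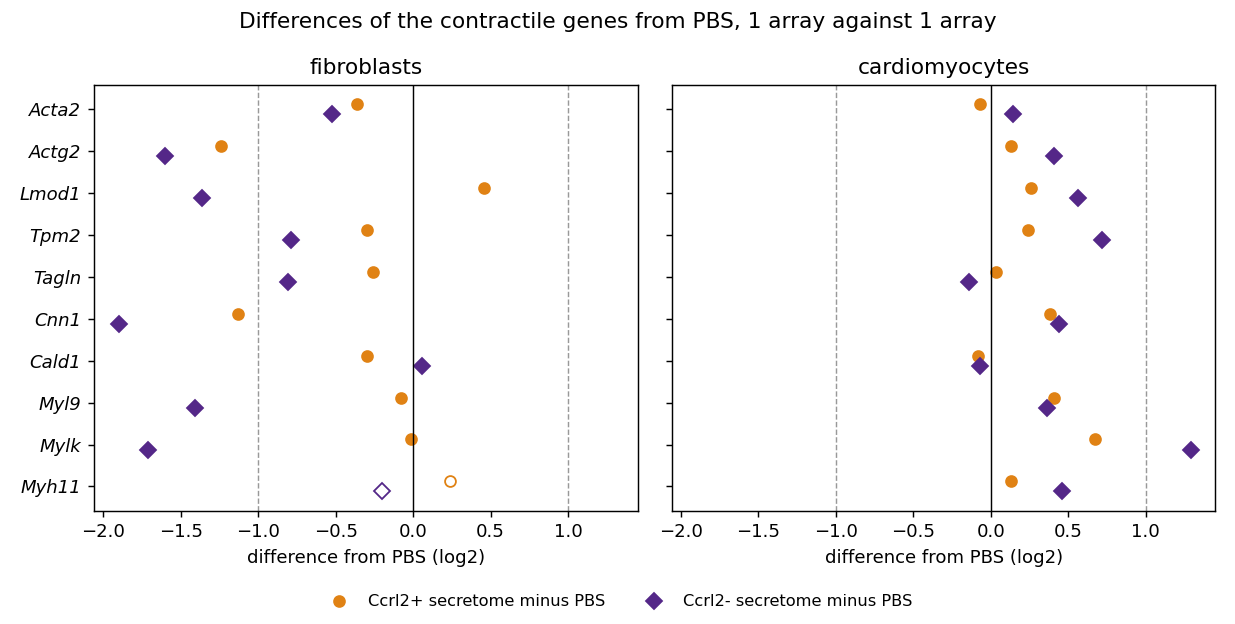
Difference from PBS (log2, horizontal axis) of each contractile gene with the Ccrl2+ secretome (circles) and the Ccrl2- secretome (diamonds), in fibroblasts on the left and cardiomyocytes on the right; dashed lines mark 2-fold and open symbols genes below the floor on both arrays. In fibroblasts 5 diamonds lie left of the 2-fold line, while in cardiomyocytes only the Mylk diamond passes it, at 1.29 on the right.

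The actins come first among the individual genes. Acta2 read 17.9 in fibroblasts with PBS, 17.54 with the Ccrl2+ secretome and 17.38 with the Ccrl2- secretome, and 17.08, 17.01 and 17.22 in cardiomyocytes with PBS, Ccrl2+ and Ccrl2-. The 3 fibroblast arrays were thus above the 3 cardiomyocyte arrays, and the differences from PBS in fibroblasts were -0.36 and -0.52, under 2-fold. The highest value of any probe set on the 6 arrays was between 18.76 and 19.02, so Acta2 sits near the top of the scale.

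Actg2, the gamma actin of visceral smooth muscle, read 9.56, 8.32 and 7.96 in fibroblasts with PBS, Ccrl2+ and Ccrl2-. It lay 2.36-fold lower with Ccrl2+ and 3.03-fold lower with Ccrl2- than with PBS. In cardiomyocytes it read 7.16, 7.29 and 7.57, all under the fibroblast values. The muscle actins are nearly identical in sequence, so probes for Acta2 and Actg2 can bind related transcripts and both are uncertain in that respect.

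Lmod1 encodes leiomodin 1, which nucleates actin filaments in smooth muscle. Its fibroblast values were 8.6 with PBS, 9.06 with Ccrl2+ and 7.24 with Ccrl2-, and its cardiomyocyte values were 7.69, 7.95 and 8.25. The Ccrl2- fibroblast array was the lowest of the 6, 2.57-fold under PBS and 3.53-fold under the Ccrl2+ array. Of the 9 genes past the floor in fibroblasts, it alone read above PBS with the Ccrl2+ secretome, by 0.46, although with a loess trend removed Mylk and Myl9 did too, by 0.07 and 0.01.

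Among the genes for proteins that coat the actin filament, Tagln, which encodes transgelin, read 16.18, 15.92 and 15.37 in fibroblasts and 15.24, 15.27 and 15.1 in cardiomyocytes, in the order PBS, Ccrl2+ and Ccrl2-. Tpm2, the beta-tropomyosin gene, read 14.04, 13.74 and 13.25 in fibroblasts and 12.1, 12.34 and 12.82 in cardiomyocytes. Both had their highest value in PBS fibroblasts, and with the Ccrl2- secretome they were lower by 0.81 and 0.79, short of 2-fold. For Tpm2 the gap between the cell types was 1.94 in PBS, 1.4 with Ccrl2+ and 0.43 with Ccrl2-, with the fibroblast value lower and the cardiomyocyte value higher on the secretome arrays.

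Cnn1 encodes calponin 1, an actin-binding inhibitor of the myosin ATPase. In fibroblasts it read 9.49 with PBS, 8.36 with Ccrl2+ and 7.59 with Ccrl2-, 2.19-fold and 3.73-fold under PBS. In cardiomyocytes it read 6.27, 6.65 and 6.71, at or near the floor. Of the 10 genes it had the most negative difference in the Ccrl2- comparison, -1.9.

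Cald1 encodes caldesmon, which holds tropomyosin-coated actin away from myosin. It read 14.58, 14.28 and 14.64 in fibroblasts and 14.01, 13.93 and 13.94 in cardiomyocytes. The whole range over the 6 arrays was 0.71, the narrowest of the 10 genes, and it was the only one of the 9 past the floor that was not lower with the Ccrl2- secretome than with PBS. The gene also has a nonmuscle isoform in most cell types, and the probe set value does not separate isoforms.

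The motor genes split by array. Myl9, the regulatory light chain gene, read 14.45 with PBS and 14.37 with Ccrl2+ in fibroblasts, but 13.04 with Ccrl2-, and 13.74, 14.15 and 14.1 in cardiomyocytes. The Ccrl2- fibroblast array was again the lowest of all 6, and lay 2.66-fold under PBS fibroblasts and 2.08-fold under the cardiomyocyte array with the same secretome.

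Mylk, whose kinase activates Myl9 protein, gave 12.86 with PBS, 12.85 with Ccrl2+ and 11.15 with Ccrl2- in fibroblasts. The first pair differed by 0.01, and the Ccrl2- value was 3.27-fold under PBS. In cardiomyocytes Mylk gave 6.93 with PBS, 7.6 with Ccrl2+ and 8.22 with Ccrl2-, so the Ccrl2- secretome went with a lower value in fibroblasts and a higher one, by 1.29, in cardiomyocytes. The difference between the cell types was 5.93 in PBS, 5.25 with Ccrl2+ and 2.93 with Ccrl2-.

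Myh11, the smooth muscle myosin heavy chain gene and the marker of differentiated smooth muscle, was below the floor on the 3 fibroblast arrays, at 6.11, 6.35 and 5.91. On the cardiomyocyte arrays it read 7.3, 7.43 and 7.76, higher than in fibroblasts on every array but within the range of the negative controls. It was the only one of the 10 genes whose PBS value was lower in fibroblasts than in cardiomyocytes.

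**Figure D3:**
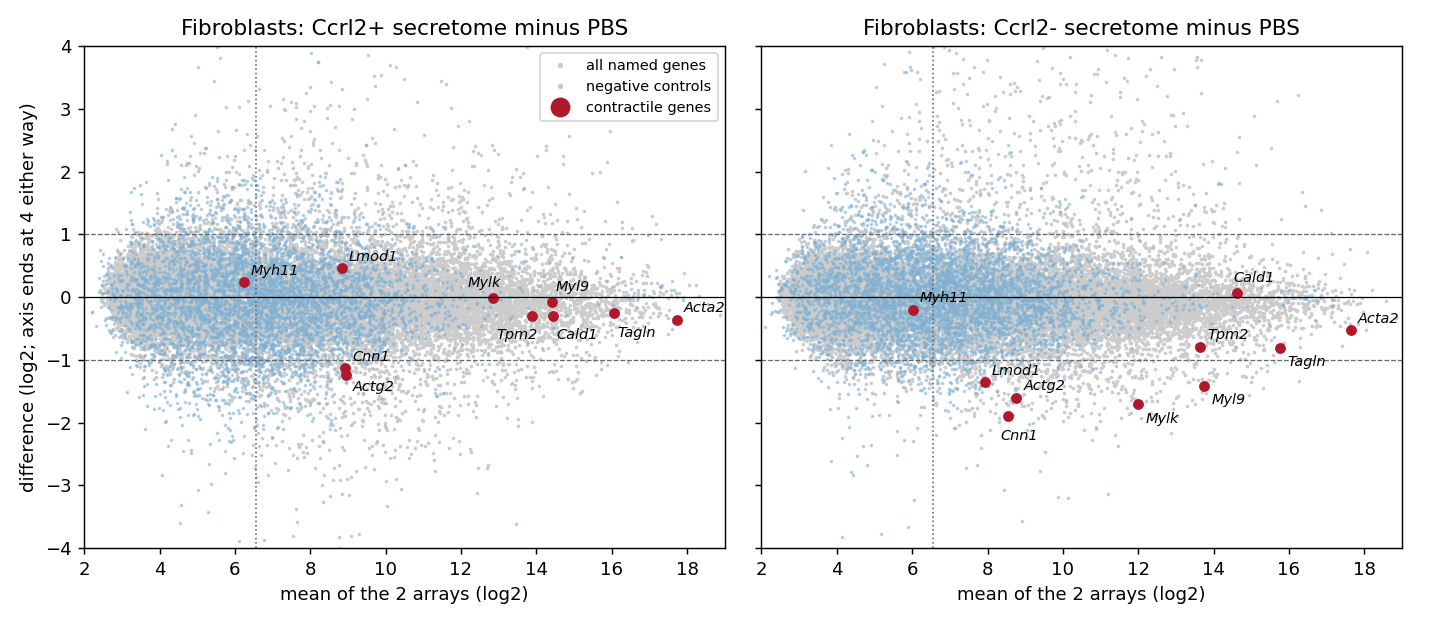
Difference from PBS in fibroblasts (log2, vertical axis) against the mean of the same arrays (log2, horizontal axis) for the Ccrl2+ secretome on the left and the Ccrl2- secretome on the right; grey points are all named genes, blue points negative controls, red points the contractile genes, dashed lines 2-fold and the dotted line the floor. The axis ends at 4 in either direction and points beyond it are not drawn; with Ccrl2-, Mylk and Myl9 lie to the right of most controls, while Cnn1, Actg2 and Lmod1 lie at levels that many controls reach.

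In PBS, without added macrophage secretome, 9 of the 10 genes read higher in fibroblasts than in cardiomyocytes. Tpm2, above the control range in both cultures, was 3.84-fold higher. Mylk and Actg2 were higher by 5.93 and 2.4 on the log2 scale, but their cardiomyocyte values, 6.93 and 7.16, lie within the control range (61.8% and 66.0% of controls were lower), so these sizes are not exact folds. Against the floor, Cnn1 was at least 2.94 higher, since its cardiomyocyte value was under it. These are the 4 genes at least 2-fold higher, against 13.9% of 10394 genes. The fibroblast values of Actg2 and Cnn1, 9.56 and 9.49, also lie within the control range (88.8% and 88.2% of controls were lower). With the 10.14 floor, 2 of the 5 calls of this comparison were left, Mylk and Tpm2. Myh11 was the 1 gene at least 2-fold lower, against 16.9% of all genes, and only 0.75 lower when its fibroblast value is set to the floor. Acta2, Tagln, Lmod1, Myl9 and Cald1 were higher by 0.82, 0.94, 0.91, 0.71 and 0.57, each under 2-fold. The median was 0.92, against 0.01 over all genes. Acta2 and Tagln were therefore high in the cardiomyocyte culture as well, and in such bulk samples fewer cells of a type and less RNA per cell cannot be told apart. Of the negative controls above the floor, 25.8% read higher in fibroblasts by 2-fold and 4.83% lower. Of 7 pericyte markers past the floor, 5 were lower by 2-fold in PBS fibroblasts and 2 higher (median -1.78). Rgs5 read 7.17 in PBS cardiomyocytes and 5.98 in PBS fibroblasts, and Cspg4 10.9 and 6.79, while Pdgfrb read 12.91 and 15.44. Which cells of either culture carried the contractile transcripts was not tested.

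In cardiomyocytes the secretomes went with small differences. With Ccrl2+, 0 of the 10 genes passed 2-fold in either direction, against 0.21% higher and 0.629% lower over 10009 genes, and the median was 0.18 against -0.01. With Ccrl2-, 1 gene, Mylk, was at least 2-fold higher and 0 lower, against 0.746% and 0.786% of 10054 genes, with a median of 0.42 against -0.02 over all genes. The Mylk values of 6.93 and 8.22 lie within the control range (61.8% and 81.3% of controls were lower), and 7.93% of the controls past the floor read higher by 2-fold in this comparison. With the 10.14 floor the Mylk call was lost and the median was 0.14. Between the secretomes 0 genes passed 2-fold, against 0.13% higher and 0.18% lower over 9995 genes, and the median was -0.24 against 0.0. After Mylk, the next differences with Ccrl2- were those of Tpm2 (0.72) and Lmod1 (0.56), and Tagln (-0.14) and Cald1 (-0.07) read lower.

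Fibroblast markers differed on the same cardiomyocyte arrays. All 11 on the array were higher with Ccrl2- than with PBS, 4 of them by the 2-fold threshold, with a median of 0.72. Over all genes, 0.746% were higher by that threshold in this comparison. With Ccrl2+, 10 of 11 were higher, 0 by 2-fold, with a median of 0.32. The 4 were Col3a1 (10.93 against 8.78), Tcf21 (7.52 against 6.2), Thy1 (12.11 against 10.88) and Col1a1 (11.3 against 10.13), named after their values were seen. Their summed level, the log2 of the summed linear values of the 11 genes, was 15.99 with PBS, 16.19 with Ccrl2+ and 16.47 with Ccrl2-, and it was between 19.3 and 19.54 on the fibroblast arrays. Tcf21 was below the floor in PBS cardiomyocytes, so it was at least 0.97 higher, a bound short of 2-fold, and 0 of the 11 markers were below it on the secretome arrays. Mylk, which was high in fibroblasts, followed the same order over these 3 arrays, and the part of fibroblast RNA in its difference was not tested.

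On the fibroblast arrays, cell type markers differed as well. With the Ccrl2- secretome, 9 of 11 fibroblast markers were below PBS (median -0.46), against 57.8% of all genes. Of 11 macrophage markers, 3 were at least 2-fold higher and 6 lower, against 6.18% and 4.83% of all genes. The macrophage summed level was 14.64 with PBS and 14.59 with Ccrl2-, with 0 macrophage markers below the floor. Of the cardiomyocyte markers, 8 of 11 past the floor were below PBS (median -0.21), and of the endothelial markers 6 of 7 were (median -0.53). With the Ccrl2+ secretome, 11 of 11 cardiomyocyte markers past the floor were above PBS (median 0.96), and their summed level was 18.06 against 17.14. The macrophage summed level was 15.24 there. Fibroblast and endothelial markers had medians of 0.19 and 0.24 with Ccrl2+. Epicardial markers had a median of -0.59 with Ccrl2-, with 7 below PBS and 2 above. With Ccrl2+ the median was 0.26, with 5 above and 4 below. Aldh1a2, which makes retinoic acid, differed against both medians, at 11.93 with PBS, 8.88 with Ccrl2+ and 14.65 with Ccrl2-. Krt19 did so too, by 0.1 with Ccrl2- and by at least 0.55 lower with Ccrl2+. Aldh1a2 and Krt19 were named after their values were seen. The part of these differences in the contractile differences was not tested.

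By their medians, the nonmuscle and striated relatives of the contractile genes lay closer to PBS. Of 13 past the floor, 0 differed by 2-fold with Ccrl2- (median -0.26), and 1 was lower with Ccrl2+ (median -0.06). Over all genes, 6.18% were higher and 4.83% lower by 2-fold with Ccrl2-, and 4.87% and 6.13% with Ccrl2+. Between the secretomes 1 of the 13, Actc1, was at least 2-fold higher with Ccrl2+ and 1, Tagln2, lower. The shares of all genes there were 8.55% and 10.1%. The gene lower than PBS with Ccrl2+ was Myh10, a nonmuscle myosin heavy chain, at 14.37 in PBS fibroblasts, 13.09 with Ccrl2+ and 13.52 with Ccrl2-. Its relative Myh9 read 15.63, 15.23 and 15.26, and the cytoplasmic actin gene Actb 18.08, 17.95 and 17.85. Cnn2, a calponin of nonmuscle cells, read 13.99, 13.96 and 13.06, a difference of -0.93 with Ccrl2-, while Cnn3 read 14.49, 14.87 and 14.54. Tagln2, the transgelin of nonmuscle cells, read 15.41, 14.84 and 15.97, so it was 0.56 higher with Ccrl2-, where Tagln was 0.81 lower. The tropomyosin gene Tpm1 read 16.57, 16.36 and 16.07, and Tpm4 15.95, 15.67 and 16.01. Actc1, the cardiac actin gene, read 10.71, 11.68 and 10.45 in fibroblasts and 16.65 to 16.85 in cardiomyocytes. Acta1, the skeletal muscle actin gene, was below the floor on all 6 arrays.

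Further smooth muscle markers, which are not part of the set, had a median of -0.74 with Ccrl2- and 0.16 with Ccrl2+. With Ccrl2-, 3 of the 10 past the floor read at least 2-fold lower and 0 higher, against 4.83% and 6.18% of all genes. They were Itga8, an integrin subunit of contractile mesenchymal cells (10.82 against 12.68), the amine oxidase gene Aoc3 (6.04 against 7.96, at least 1.41 lower) and the small heat shock protein gene Hspb6 (11.16 against 12.64). With Ccrl2+, Itga8 read 13.38 and Aoc3 7.93. The intermediate filament gene Des, which cardiomyocytes express strongly (14.75 in PBS), read 6.55 in PBS fibroblasts, 7.83 with Ccrl2+ and 5.85 with Ccrl2-. In PBS, 5 of the 10 were at least 2-fold higher in fibroblasts than in cardiomyocytes, against 13.9% of all genes. By that much 4 were lower, Des, Hspb6, Pln and Kcnmb1, against 16.9%. Hspb6 read 15.35 and Pln 16.18 in PBS cardiomyocytes, against 12.64 and 7.96 in PBS fibroblasts, and Pln is also one of the 12 cardiomyocyte markers. Hspb6, Pln, Kcnmb1 and Npnt, which read 8.04 with Ccrl2+ against 9.11, were named after their values were seen.

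**Figure D4:**
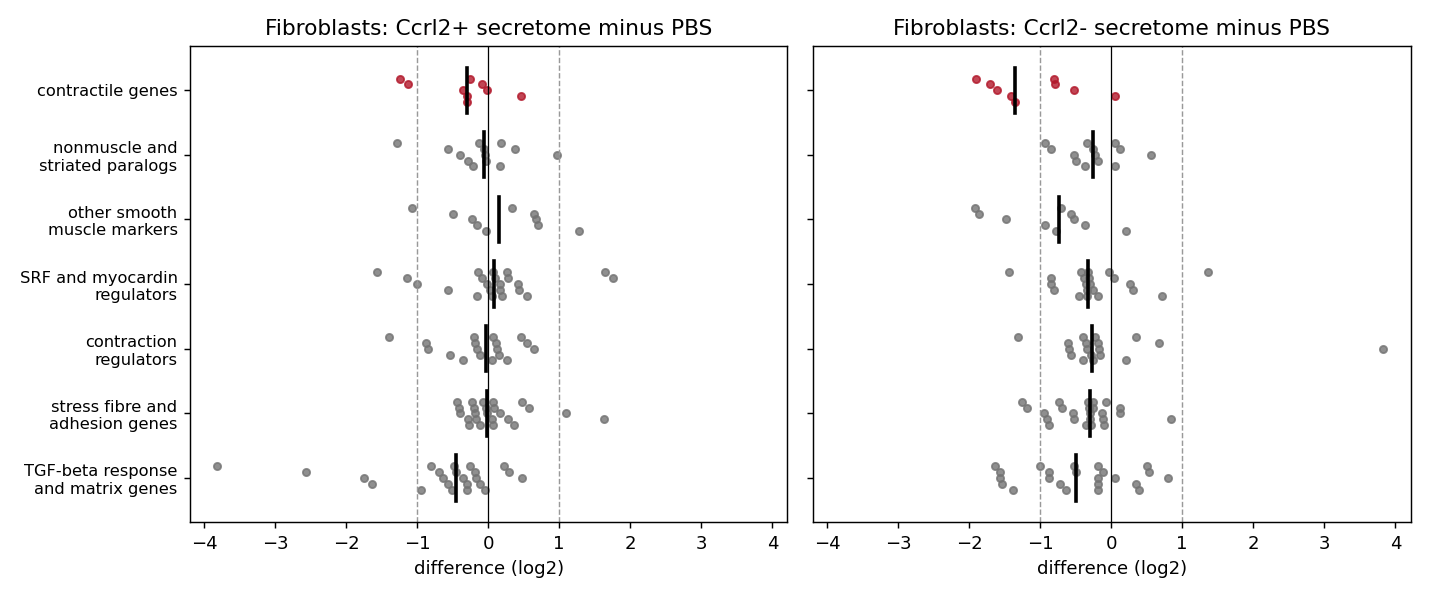
Difference from PBS in fibroblasts (log2, horizontal axis) of each gene past the floor in 7 lists, with the Ccrl2+ secretome on the left and the Ccrl2- secretome on the right; black bars are list medians and dashed lines mark 2-fold. The contractile genes have a median of -1.36 with Ccrl2-, the other 6 lists medians between -0.74 and -0.26, and the far point at 3.83 is Rnd1.

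With the Ccrl2- secretome, the factors that control these genes were mostly within 2-fold of their PBS level. Of 21 regulators of the SRF and myocardin pathway past the floor with Ccrl2-, 16 were below PBS (median -0.33), against 57.8% of all genes. Only 1 of the 21 reached 2-fold lower and 1 reached 2-fold higher, against 4.83% and 6.18% of all genes. The lower one was Fhl2, an SRF cofactor and target (14.58 against 16.02), and the higher one Prrx1, a mesenchymal homeobox gene (14.48 against 13.12), both named after their values were seen. Srf itself read 9.39 with PBS, 9.46 with Ccrl2+ and 9.03 with Ccrl2-. Mrtfa read 7.71, 7.99 and 7.28, and Mrtfb 12.34, 12.43 and 12.09. The TEAD genes Tead1 and Tead3 differed by -0.19 and -0.81 with Ccrl2-.

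With the Ccrl2+ secretome, 2 of 22 regulators reached 2-fold higher and 3 reached 2-fold lower (median 0.08), against 4.87% and 6.13% of all genes. Between the secretomes, 5 of 22 were at least 2-fold higher with Ccrl2+ and 3 lower, against 8.55% and 10.1% of all genes. Myocd, which encodes the smooth and cardiac muscle coactivator myocardin, read 5.11 with PBS, 6.86 with Ccrl2+ and 4.63 with Ccrl2-, so it was below the floor with PBS and Ccrl2- and at least 0.31 higher than PBS with Ccrl2+. In cardiomyocytes it read 10.04, 9.81 and 9.19. Foxo3, a forkhead factor gene, read 6.76, 8.41 and 6.38 in fibroblasts. Csrp2, a LIM protein gene of smooth muscle, read 11.48, 9.92 and 11.14, and the other lower genes were Smad3 (10.57 against 11.71), a TGF-beta signal transducer, and Fhl2 (15.02 against 16.02), both named after their values were seen.

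Among genes that set the activity of the contractile machinery, Rnd1 stood out with the Ccrl2- secretome. Rnd1 encodes a small GTP-binding protein that opposes RhoA and dissolves stress fibres. It read 11.65 in PBS fibroblasts, 10.78 with Ccrl2+ and 15.48 with Ccrl2-, 14.2-fold over PBS, and 12.98, 12.55 and 12.11 in cardiomyocytes, where it was lower with both secretomes. It was the only one of 18 contraction regulators past the floor at least 2-fold higher with Ccrl2-, and 1 was lower, the calcium channel gene Cacna1c. Over all genes, 6.18% were higher and 4.83% lower by 2-fold with Ccrl2-. Cacna1c read 11.79, 10.39 and 10.48 in fibroblasts, so it was at least 2-fold lower with both secretomes. Rnd3, a relative of Rnd1, read 13.29, 12.44 and 13.96. Rhoa (15.11, 14.92 and 14.83) and Rock1 (14.48, 14.55 and 14.08), the switch and the kinase that restrain the myosin phosphatase, differed from PBS by less than 2-fold with either secretome. The list median was -0.26 with Ccrl2- and -0.03 with Ccrl2+.

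Genes of the stress fibre and its adhesions, which pass contractile force to the matrix, were also mostly below PBS with the Ccrl2- secretome. Below it were 21 of 24, against 57.8% of all genes, and the list median was -0.3. By 2-fold, 2 were lower and 0 higher, against 4.83% and 6.18% of all genes. The 2 were Tns1, the adhesion protein tensin 1 (14.82 against 16.0), and Sorbs3, the vinculin partner vinexin (10.89 against 12.14). With Ccrl2+ the median was -0.02, and 2 were at least 2-fold higher, Tns1 (17.1) and Svil, the actin and membrane linker supervillin (14.12 against 12.49). By that much 0 were lower, and over all genes 4.87% were higher and 6.13% lower. Tns1 thus lay above PBS with one secretome and below it with the other, and the direct difference between the secretomes was 2.28.

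Of 23 TGF-beta response and myofibroblast matrix genes past the floor, 20 read below PBS with Ccrl2+ (median -0.45), and 17 read below and 6 above it with Ccrl2- (median -0.5). Over all genes, 55.3% read below PBS with Ccrl2+ and 57.8% with Ccrl2-. At least 2-fold lower were 4 of 23 past the floor with Ccrl2+ and 6 of 23 with Ccrl2-, and 0 were higher by 2-fold in either. Over all genes, 6.13% were lower and 4.87% higher by 2-fold with Ccrl2+, and 4.83% and 6.18% with Ccrl2-. Cthrc1, a secreted protein gene of activated fibroblasts, read 10.98 with PBS, 7.17 with Ccrl2+ and 9.98 with Ccrl2-. Itga11, a collagen-binding integrin subunit gene, read 9.54, 6.98 and 8.0, and Tnc, the matrix protein tenascin C gene, 12.34, 10.59 and 12.87. The ligand genes Tgfb3 (12.6 against 14.24) and Tgfb2 (13.06 against 14.44), the feedback gene Pmepa1 (12.27 against 13.84) and the oxidase gene Nox4 (6.9 against 8.47) made up the Ccrl2- count with Cthrc1 and Itga11. Cthrc1, Itga11 and Tnc, with Ltbp2 (5.03 against 6.67, at least 0.12 lower), made up the Ccrl2+ count. Cthrc1 and Itga11 were thus at least 2-fold lower with both secretomes. Of the contractile genes, Mylk and Myl9 read within 0.08 of PBS with Ccrl2+, but Actg2 and Cnn1 were at least 2-fold lower there. Tgfb2, Tgfb3, Pmepa1, Nox4 and Ltbp2 were named after their values were seen.

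The pattern of the set over the 6 arrays was compared with 5668 other named genes (predicted and clone symbols left out) that passed the floor and varied by at least 1, each centred on its own mean. Acta2 itself varied by 0.89, and the median profile ran from 0.61 to -0.36, both under that limit. Genes varying as little were therefore not among those compared. The root mean square distance to Acta2 was smallest for Simc1 (0.061), Ap2a2 (0.079), Nbdy (0.087), Kmt2b (0.094) and Lgalsl (0.102). For the median profile of the 10 genes it was smallest for Ints6l (0.05), Fbxl12 (0.059), Ncdn (0.06), Lgalsl (0.08) and Asap1 (0.088). Within the set, the closest pair was Acta2 and Tagln (0.17) and the farthest Mylk and Myh11 (3.08). Ints6l read 10.52, 10.22 and 9.83 in fibroblasts and 9.47, 9.58 and 9.68 in cardiomyocytes, in the order PBS, Ccrl2+ and Ccrl2-. With 6 arrays that share a cell type difference, such likeness is a description only.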

How the data were processed

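Biotin-labelled cRNA from 1 to 8 ug of total RNA was hybridised to Affymetrix arrays, per the labels' protocols. The authors deposited 1 log2 value per probe set, and the submitters' processing notes name Affymetrix Expression Console as the software. No version, algorithm, annotation or build is stated there. The sorted values of the 6 arrays differ by 0.09 on average and 0.3 at most, so the arrays have nearly one distribution, and a difference in overall level between samples would not show.

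Symbols came from the platform annotation, which gave 1 symbol for 19572 of 28846 probe sets, several for 0 and none for 9274. The probe set with the highest mean was used per symbol, which left 19505 genes. Differences were taken between pairs of arrays in 7 comparisons. A gene was called when the higher value reached 6.55 and the difference reached 2-fold. Where the lower value was under the floor, the bound against the floor is given as "at least". The number of arrays limits the precision, and no p-value was computed.

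The 10 members, the 12 other gene lists and all rules were chosen with earlier results of these data known. Mkl1 and Mkl2 were joined to Mrtfa and Mrtfb as older names. From each list outside the cell type markers, up to 3 genes with the largest fibroblast difference were to be named. Besides these came the members, their closest paralogs and the 5 genes of most similar pattern among those compared. Names outside this rule are marked or are cell type markers or factors of the background. Some genes of the lists are not reported here.

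As alternatives, the fold threshold was set to 1.5 or 3, the floor was dropped or set to 10.14 (the 75th percentile), arrays were quantile normalized again, a loess trend was subtracted (span 0.4), probe sets of a gene were averaged, or low values were raised to the floor. The code that counts calls was tested on simulated data with known answers. Promoter windows came from RefSeq, GRCm38.p6. Python 3.11.15, numpy 2.4.6, pandas 2.3.3, statsmodels 0.14.6 and matplotlib 3.10.9 were used.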

Additional observations from a re-analysis of the deposited data

Results flagged for a closer look

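Among the 10 contractile genes and the genes of the 12 other lists, 3 differed from PBS by at least 2-fold in opposite directions in the cell types, 1 array against 1 array in each, and the difference between the cell types was not tested. With the Ccrl2- secretome, Mylk differed by -1.71 in fibroblasts and by 1.29 in cardiomyocytes, where its values lie within the range of the negative controls. With the same secretome, the integrin gene Itga8 differed by -1.86 in fibroblasts and by 1.69 in cardiomyocytes, where its PBS value of 6.46 was below the floor and the difference is at least 1.6. On the same cardiomyocyte arrays all 11 fibroblast markers read higher with Ccrl2- (median 0.72), and their part in the Mylk and Itga8 values was not tested. With the Ccrl2+ secretome, the complement gene C1qc, a macrophage marker, differed by 1.23 in fibroblasts and by -1.3 in cardiomyocytes.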

How the results depend on the processing

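Quantile normalization, loess removal and the mean of probe sets left each count of contractile genes and each median of the 7 comparisons on the same side and within the allowed margin, which for medians was 1 SD, over genes, of the difference between the cardiomyocyte secretome arrays (0.27). So did raising values to the floor. At 3-fold, the fibroblast counts were 0 in place of 2 with Ccrl2+ and 3 in place of 5 with Ccrl2-, and the cardiomyocyte Ccrl2- count 0 in place of 1. At 1.5-fold the count was 1 in place of 0 for Ccrl2+ over PBS and for Ccrl2+ over Ccrl2- in cardiomyocytes, 2 for Ccrl2- over PBS there, and 9 in place of 5 for fibroblasts over cardiomyocytes. With the floor at the 75th percentile, the counts were 0 (fibroblasts, Ccrl2+), 2 (fibroblasts, Ccrl2-), 0 (cardiomyocytes, Ccrl2-) and 2 (fibroblasts over cardiomyocytes), since fewer genes are tested, and the Ccrl2- medians were -0.8 in fibroblasts and 0.14 in cardiomyocytes. With no floor the fibroblast Ccrl2- median was -1.08, because Myh11 enters.

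Over all genes, called numbers at 1.5-, 2- and 3-fold were 2652, 1105 and 427 for fibroblast Ccrl2+, 2561, 1108 and 497 for fibroblast Ccrl2-, 3805, 1889 and 858 between the fibroblast secretomes, 544, 84 and 8 for cardiomyocyte Ccrl2+, 927, 154 and 19 for cardiomyocyte Ccrl2-, 471, 31 and 0 between the cardiomyocyte secretomes, and 5237, 3205 and 1755 between the cell types. In the same order, the floor at the 75th percentile gave 512, 623, 1016, 24, 44, 4 and 1820. With no floor the cardiomyocyte numbers were 162, 272 and 83, and raising values to the floor gave 16 between the cardiomyocyte secretomes.

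No paired analysis was possible because each group has 1 array and the labels give no replicate numbers. Signals of Actg2, Cnn1, Lmod1 and Myh11 on the 6 arrays, and of Mylk on the 3 cardiomyocyte arrays, lie within the range of the negative controls, which limits what their differences show.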

Other observations

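Pericyte markers, a further source of contractile transcripts in heart cultures, gave mixed values. In fibroblasts 5 of 10 passed the floor in each comparison, with medians of -0.51 for Ccrl2+ and -0.6 for Ccrl2-. Notch3, a receptor gene of mural cells, read 8.14 with PBS, 7.13 with Ccrl2+ and 6.87 with Ccrl2-, and Mcam 11.16, 10.16 and 10.18. Ndufa4l2, a mitochondrial protein gene that also responds to hypoxia, read 5.76, 6.78 and 11.14, at least 4.59 higher with Ccrl2- than with PBS. In cardiomyocytes 7 of 10 passed the floor with medians of 0.27 and 0.51, and Rgs5 read 7.17, 7.44 and 8.41. These genes were named after their values were seen.

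Some genes of the cardiomyocyte arrays outside the set differed in the same direction as Mylk. The epicardial markers Lrrn4 (9.69, 10.42 and 11.27) and Upk3b (9.39, 9.48 and 10.35) were in the order PBS, Ccrl2+ and Ccrl2- from low to high, and all 6 epicardial markers past the floor were above PBS with either secretome. Kcnmb1, the smooth muscle potassium channel subunit gene, read 11.65, 12.14 and 12.78, while its fibroblast values were 9.93, 9.78 and 10.14. Its list, the smooth muscle markers outside the set, was mixed in cardiomyocytes with Ccrl2-. Of 9 past the floor, 4 were above PBS and 5 below, with a median of -0.04. Lrrn4, Upk3b and Kcnmb1 too were named after their values were seen.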
